A study of Rattus norvegicus with 4 samples.

Results

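Receptors of the TNF receptor superfamily were followed in cultured rat aortic smooth muscle cells, the muscle of the artery wall, after exposure to the growth factor PDGF-BB. The members were the 7 genes Tnfrsf1a, Tnfrsf1b, Tnfrsf9, Tnfrsf11b, Tnfrsf12a, Tnfrsf21 and Fas, taken as every probe set annotated to exactly 1 gene symbol where that symbol was one of these, which gave 8 of 23707 probe sets and 7 of 12922 genes. The members were chosen on measured intensities, namely with the difference between the PDGF-BB and vehicle arrays already known and no cut-off on it, so that difference is given for the members as a description without a test. Of the 2 groups, one was given 30 ng/mL PDGF-BB and the other vehicle alone, a 10 mM acetic acid solution with 0.2% bovine serum albumin, each for 3 h in medium free of serum and insulin. Before that, all cells were seeded at a density of 10000 per cm2, grown for 24 h with 10% fetal bovine serum and starved of it for 72 h. Both groups were hybridised to 2 Affymetrix arrays each, and the study looked for early genes of smooth muscle phenotypic modulation, the loss of contractile gene expression. The labels name no strain, sex, age or passage, and they do not state whether a group's 2 arrays stem from different cultures, so errors and p-values reflect array-to-array spread, which may be technical.

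Members of the TNF receptor superfamily bind trimeric ligands of the TNF superfamily through cysteine-rich repeats. One class, with Tnfrsf1a, Fas and Tnfrsf21, carries a cytoplasmic death domain that can recruit adaptors leading to caspase activation, and Tnfrsf1a can also activate NF-kappaB. Another class, with Tnfrsf1b, Tnfrsf9 and Tnfrsf12a, has no death domain and binds TRAF adaptors directly, while Tnfrsf11b (osteoprotegerin) is a secreted decoy that captures ligands. In vascular smooth muscle, Tnfrsf12a (Fn14) is known as a growth factor-inducible receptor and osteoprotegerin as a factor linked to vascular calcification.

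The sequence before the transcription start is shown for the member with the largest difference (Tnfrsf12a), for the bright death domain receptor that was higher with PDGF-BB (Tnfrsf1a) and for the one that was lower (Fas). The 250 bases before a transcript start come from RefSeq on build GRCr8, whose promoter table matched 6 of the 7 members, all but Tnfrsf11b. They lie at chr10:13213649-13213898 on the minus strand for Tnfrsf12a, chr4:159836869-159837118 on the plus strand for Tnfrsf1a and chr1:241211905-241212154 on the plus strand for Fas. The start is the one in that promoter table. For Tnfrsf12a it lies inside the RefSeq gene span, so that the last 18 bases of its window are within the gene, while the windows of the other 5 members end where the gene begins. Each runs 5′ to 3′ on the strand of its gene, and capitals mark the AP-1, GC box and NF-kappaB letters described below.
Tnfrsf12a: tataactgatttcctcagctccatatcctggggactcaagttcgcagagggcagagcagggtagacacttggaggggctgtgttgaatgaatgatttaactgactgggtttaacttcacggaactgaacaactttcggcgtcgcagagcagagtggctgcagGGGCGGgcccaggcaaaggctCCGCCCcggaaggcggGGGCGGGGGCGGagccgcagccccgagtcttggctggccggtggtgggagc
Tnfrsf1a: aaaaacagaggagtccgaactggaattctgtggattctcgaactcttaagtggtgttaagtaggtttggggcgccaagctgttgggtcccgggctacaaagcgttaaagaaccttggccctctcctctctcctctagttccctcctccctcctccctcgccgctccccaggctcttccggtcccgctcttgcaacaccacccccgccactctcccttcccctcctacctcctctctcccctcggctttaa
Fas: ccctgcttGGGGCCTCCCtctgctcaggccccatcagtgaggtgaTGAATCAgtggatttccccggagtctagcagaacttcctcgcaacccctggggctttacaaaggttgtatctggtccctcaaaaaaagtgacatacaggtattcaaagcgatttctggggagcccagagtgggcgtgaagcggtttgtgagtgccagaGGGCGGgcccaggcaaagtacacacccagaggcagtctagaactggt

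These windows were searched on both strands for the AP-1 letters TGANTCA, the CRE letters TGACGTCA, the GC box letters GGGCGG, the TATA box letters TATAAA, the CCAAT box letters CCAAT, the E box letters CACGTG, the CArG box and the NF-kappaB consensus. Tnfrsf12a held 4 GC boxes between 88 and 40 bases before the start, Tnfrsf1b 3 of which 2 overlap, and Tnfrsf21 and Fas 1 each, so 4 of 6 member windows had one, against 30.5% of 33469 RefSeq windows of this length. AP-1 letters stood in 2 of the 6 windows, those of Tnfrsf1b and Fas, against 6.34% of all windows, and Fas also held an NF-kappaB match, present in 6.33% of all. The Tnfrsf1a and Tnfrsf9 windows held none of the 8 motifs, and the CRE, TATA box, CCAAT box, E box and CArG box had 0 matches in the 6 windows, against 1.59%, 12.9%, 34.0%, 5.59% and 1.5% of all windows. The GC content was 60.8% for Tnfrsf12a, 57.6% for Tnfrsf1a and 55.6% for Fas, against a median of 51.2% over all windows. In the other member windows it was 60.4% for Tnfrsf1b, 51.6% for Tnfrsf21 and 49.6% for Tnfrsf9. A match describes these letters and is no evidence of a bound factor.

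Each deposited value is a linear intensity of 1 probe set, with medians of 144 and 132 on the PDGF-BB arrays and 145 and 148 on the vehicle arrays. The log2 values correlated at 0.993 between the PDGF-BB arrays and 0.995 between the vehicle arrays across 23707 probe sets, which are not independent replicates. No detection calls come with the table, and 80.3, the brightest value of 27 Bacillus control probe sets, serves as a rough background level. All 10 smooth muscle markers measured lay above that level, with summed intensities of 49919 to 50904 in the PDGF-BB group and 53159 to 53877 in the vehicle group, and limma called 4 of them lower. Of 8 endothelial markers 6, of 7 macrophage markers 5 and of 7 lymphocyte markers 7 were at or below background in both groups, Pecam1 and Itgam among them. The summed macrophage markers were 1381 to 1494 with PDGF-BB and 1624 to 1672 with vehicle, most of it Cd14, with 0 of 7 called. Endothelial sums were 386 to 393 with PDGF-BB and 429.9 to 431 with vehicle, with 1 marker called higher and 1 lower. Of 8 fibroblast markers 2, Dpt and Dcn, were at or below background in both groups, and 0 of 8 were called. The 8 fibroblast markers summed to 21741 to 22790 with PDGF-BB and 23767 to 23874 with vehicle. Col1a1 and Col1a2 made up most of that sum, while Pdgfra averaged 82.4 with PDGF-BB and 78.5 with vehicle, close to background. The part of this and the other marker sums in the results below was not tested. Fewer cells of a type and less RNA per cell cannot be told apart in such bulk samples.

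After 3 h of PDGF-BB, Tnfrsf12a differed far more than any other member, and Fas was the one member with lower intensities. The 2 PDGF-BB arrays lay beyond both vehicle arrays in 8 of 8 member probe sets, a separation seen in 63.0% of all probe sets and 67.5% of all genes, with PDGF-BB above in 29.7% of genes. At a limma adjusted p under 0.05, 5 member probe sets counted as higher and 2 as lower, where 24.4% of all probe sets were called in either direction, 11.4% higher and 12.9% lower. Nothing is read from these counts, since the members were chosen with this contrast known. Differences below are PDGF-BB minus vehicle in log2(intensity + 16), with the standard error of the limma fit to all 23707 probe sets.

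**Figure D1:**
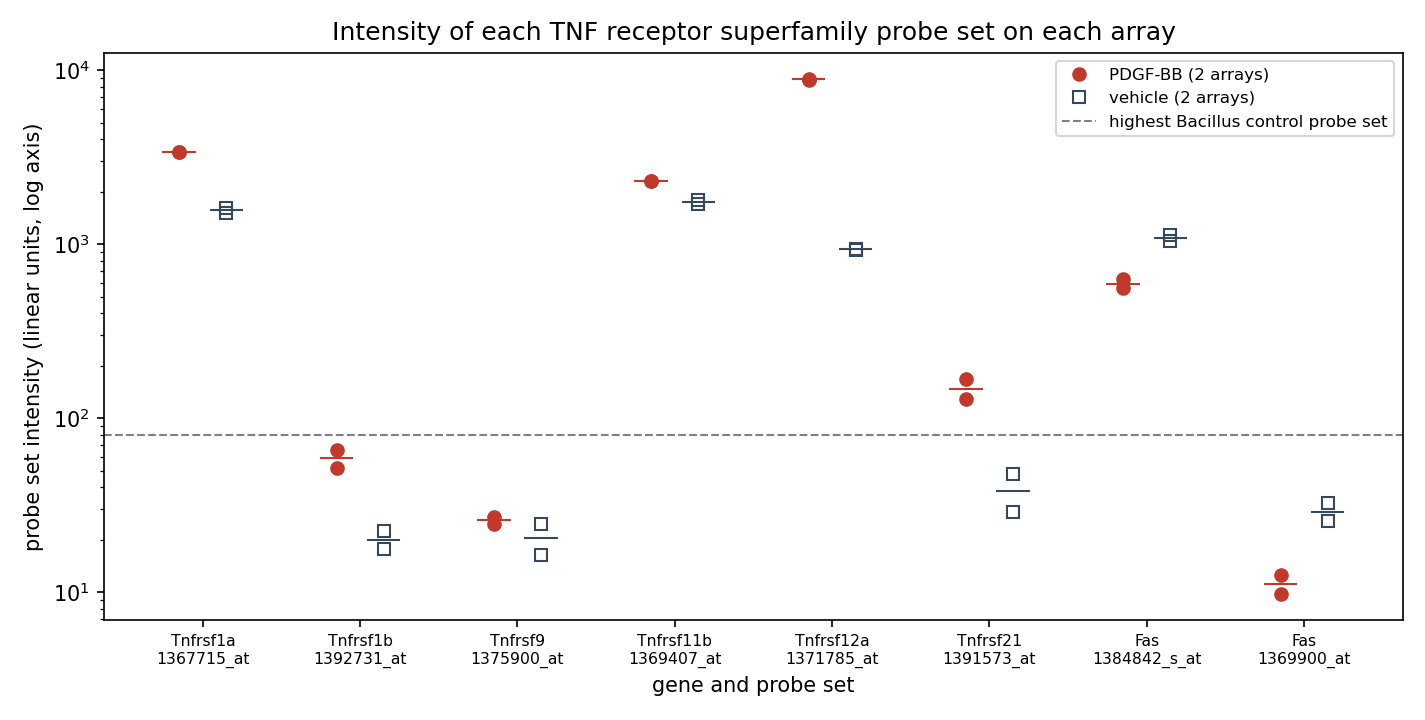
Intensity of each member probe set on each of the 4 arrays, on a log axis, with short lines at the group means and a dashed line at 80.3, the highest Bacillus control. Tnfrsf12a stands at 8931 and 8824 with PDGF-BB, above 929.8 and 941 with vehicle, while Tnfrsf1b, Tnfrsf9 and 1 of the Fas probe sets lie below the dashed line in both groups.

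Tnfrsf12a encodes Fn14, the receptor of TWEAK and a small TRAF-binding membrane protein. Its probe set, 1371785_at, read 8931 and 8824 on the PDGF-BB arrays and 929.8 and 941 on the vehicle arrays. Both PDGF-BB arrays were far brighter than either vehicle array, and the arrays of a group differed by 0.02 on the log2 scale in either group. The means were 8878 ± 75.7 with PDGF-BB and 936 ± 8.20 with vehicle (SD, n = 2 each), a ratio of 9.49 and a log2 fold change of 3.22 (SE 0.08). Among all probe sets, 99.6% had a log2 fold change at or below this one.

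Among the death domain receptors, Tnfrsf1a, the main signalling receptor for TNF, read 3393 and 3383 (probe set 1367715_at) with PDGF-BB, against 1613 and 1516 with vehicle. The groups were well apart, with a mean of 3388 ± 6.54 in PDGF-BB arrays and 1564 ± 68.2 in vehicle arrays (SD, n = 2 each), a ratio of 2.17 and a log2 fold change of 1.11 (SE 0.09).

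Fas, the death receptor for Fas ligand, went the other way. Its brighter probe set, 1384842_s_at, read 632 and 557 with PDGF-BB, against 1050.1 and 1130.2 with vehicle. The highest PDGF-BB array thus stayed under the lowest vehicle array, and the log2 fold change was -0.86 (SE 0.11). The suffix s marks probes that can match more than 1 transcript or gene. The other Fas probe set, 1369900_at, read 12.6 and 9.76 with PDGF-BB and 25.7 and 32.4 with vehicle, in the same direction but below background in both groups, so no fold is given for it.

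Tnfrsf21 (death receptor 6), a death domain receptor known for roles in neurons and lymphocytes, read 168 and 129 with PDGF-BB and 29.1 and 47.7 with vehicle. The vehicle arrays were under the background level of 80.3 and the PDGF-BB arrays above it. Set against that level, its intensity was at least 1.69-fold higher with PDGF-BB on the log2(intensity + 16) scale. The fitted log2 fold change of 1.61 (SE 0.22) had the widest error of the 8 probe sets and changed with the offset, to 1.95 with an offset of 1 and 1.05 with an offset of 64. It also moved with single arrays, to 1.356 without vehicle replicate 1 and 1.855 without vehicle replicate 2.

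Of the remaining TRAF-binding receptors, Tnfrsf1b, the second TNF receptor, read 51.9 and 65.7 with PDGF-BB and 22.4 and 17.7 with vehicle. The groups did not overlap, yet all 4 values lay below 80.3, and no fold is given. Tnfrsf9, the costimulatory receptor 4-1BB of activated lymphocytes, read 27.1 and 24.6 with PDGF-BB and 24.5 and 16.4 with vehicle. The lower PDGF-BB array was level with the higher vehicle array, so at this signal no difference was detectable.

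Tnfrsf11b, osteoprotegerin, the secreted decoy receptor for RANKL and TRAIL, was bright in both groups and differed little. It read 2294 and 2299 on the PDGF-BB arrays, against 1697 and 1790 on the vehicle arrays. The PDGF-BB arrays lay close together and above both vehicle arrays, with means of 2296 ± 3.59 and 1744 ± 65.8 (SD, n = 2 each) for PDGF-BB and vehicle, a ratio of 1.32. The log2 fold change was 0.39 (SE 0.09), and 0.25 after quantile normalization, over 1.5 times smaller.

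**Figure D2:**
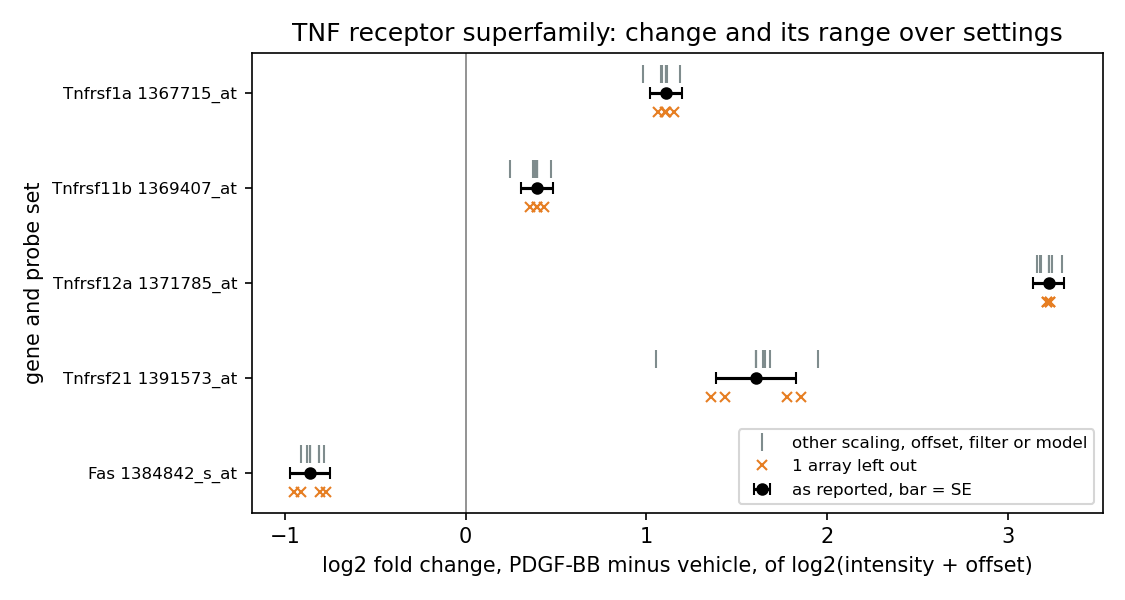
Log2 fold change of the 5 member probe sets above background in at least 1 group, PDGF-BB minus vehicle, as a point with its standard error, with ticks for other scalings, offsets, filters and models above it and crosses for fits without 1 array below it. Tnfrsf12a stays between 3.16 and 3.30, and the bright Fas probe set stays below 0, while Tnfrsf21 spreads with the offset and with the array left out.

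Direction held for all 8 member probe sets over the 11 or 12 other settings in which each was measured. Most of these settings could not have reversed it. The groups did not overlap in any member probe set, so another offset or 1 array fewer keeps the sign. The variance trend, the replicate number as a block and the background filter leave the estimate unchanged. Only array medians subtracted, quantile normalization and cyclic loess could have changed the direction. Tnfrsf12a ranged from 3.16 to 3.30, Tnfrsf1a from 0.98 to 1.18, Tnfrsf11b from 0.25 to 0.47 and the bright Fas probe set from -0.95 to -0.77. Tnfrsf21 ranged more widely, from 1.05 to 1.95, as the plot of changes over settings shows.

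Other genes of the receptor system were tested in the same fit across all probe sets, with Benjamini-Hochberg adjusted limma p-values and 1 probe set per gene, the brightest. The lists of these genes were chosen with earlier results of these data known, so the shares called are a description and not a test of a list. Over all 12922 genes, 27.6% were called at an adjusted p under 0.05, 12.4% higher and 15.2% lower, with a median over all genes of -0.03 on the log2 scale. That share includes genes at or below background. With the fit limited to probe sets above background, 4630 of 8917 genes were called. The lists below then had 0 of 1 ligand, 1 of 3 further receptors and 13 of 23 adaptors called. Death receptor effectors had 11 of 13, NF-kappaB genes 15 of 19 and shedding genes 5 of 12. The balance of directions moved with the processing: array medians subtracted gave 2232 higher and 2008 lower genes, in place of 1601 higher and 1969 lower, and without vehicle replicate 1 there were 488 higher and 298 lower.

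Ligands of the superfamily were mostly dim. Of 12 measured, 11 had means at or below background in both groups, and limma called 0 of 12, with 1 at an unadjusted p under 0.05 and a median log2 fold change of -0.04. Tnfsf12, which encodes the Fn14 ligand TWEAK, was the one ligand above background, at 458 and 403 with PDGF-BB and 531 and 497 with vehicle. Its 2 PDGF-BB arrays were below both vehicle arrays by a smaller margin than the limma threshold needs, with a log2 fold change of -0.25 (SE 0.11, adjusted p 0.177 by limma). Tnf read 13.7 and 2.50 with PDGF-BB and 23.5 and 21.4 with vehicle, all below background. That probe set passed with the replicate number as a block (adjusted p 0.0451 by limma) and without PDGF-BB replicate 1 (0.0317), a fit with a single PDGF-BB array. Also below background in both groups were Faslg, which encodes Fas ligand, Tnfsf9, the 4-1BB ligand, Tnfsf10, which encodes TRAIL, and Tnfsf11, which encodes RANKL. Faslg, for example, read 39.9 and 36.0 with PDGF-BB and 31.7 and 46.1 with vehicle, so that its groups overlapped. Without PDGF-BB replicate 1, Tnfsf10 passed as lower as well (adjusted p 0.0489 by limma).

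**Figure D3:**
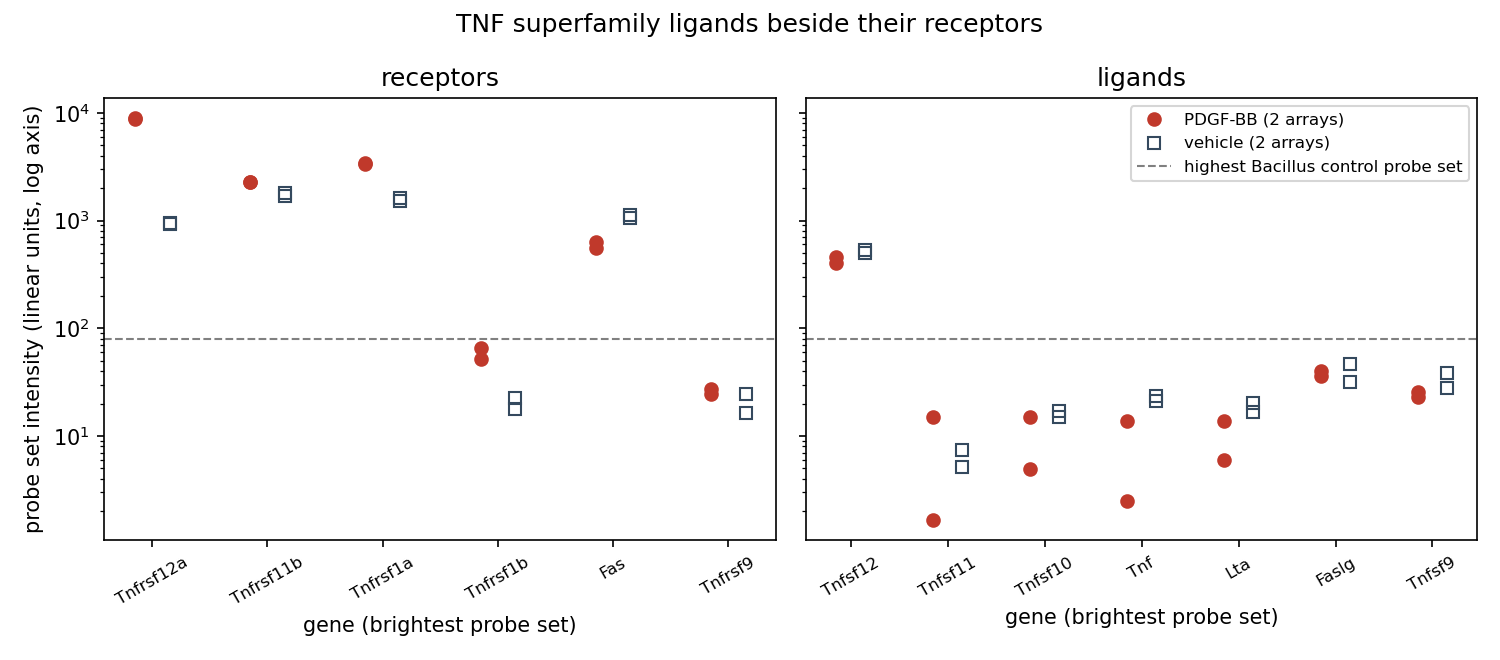
Intensities of 6 member receptors (left) and of 7 ligand genes (right) on the 4 arrays, on a log axis, with the dashed line at 80.3. Tnfsf12 is the one ligand above the line, and the order of brightness between genes carries no meaning because probe sets differ in efficiency.

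Further receptors of the superfamily were measured in 8 cases, of which 1 rose, 0 fell and 7 did not pass, with a median log2 fold change of 0.06. The share called, 12.5%, was below the 27.6% of all genes. Relt, a receptor of hematopoietic and other tissues, rose, at 239 and 255 with PDGF-BB and 154 and 129.8 with vehicle, a log2 fold change of 0.74 (SE 0.12, adjusted p 0.0168 by limma). Its call ended in each fit that left out 1 array, with adjusted p-values of 0.0629 to 0.110. The lymphotoxin beta receptor gene Ltbr, bright in both groups, read 1407 and 1273 with PDGF-BB and 1606 and 1537 with vehicle, a log2 fold change of -0.23 (SE 0.10, adjusted p 0.179 by limma). Ltbr lies outside the naming rule and was named after its values were seen, and 5 of the 8 genes lay at or below background.

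Adaptors and proximal kinases of the receptors differed in both directions. Of 24 measured, 1 rose, 6 fell and 17 did not pass, 29.2% called against 27.6% of all genes, and the median log2 fold change was -0.05. Both death domain adaptor genes called were lower. Tradd, which couples Tnfrsf1a to its kinases and ligases, read 248 and 208 with PDGF-BB and 487 and 503 with vehicle, a log2 fold change of -1.07 (SE 0.12, adjusted p 0.00717 by limma). Cradd, an adaptor with a death domain and a caspase recruitment domain, read 105 and 85.4 with PDGF-BB and 224 and 249 with vehicle, a fall of 1.19 on the log2 scale (SE 0.13, adjusted p 0.00699 by limma). In both genes both vehicle arrays lay well above the PDGF-BB arrays. Sharpin, a subunit of the linear ubiquitin ligase, fell by 0.52 (SE 0.09, adjusted p 0.0198 by limma), and Traf4 rose by 0.61 (SE 0.10, adjusted p 0.0183 by limma). Traf5, Tab1 and Rbck1, named after their values were seen, were the other 3 that fell, by 0.65, 0.52 and 0.57. Traf2, the TRAF adaptor of Tnfrsf1b and Tnfrsf12a, read 234 and 199.8 with PDGF-BB and 153 and 155 with vehicle and just missed the threshold (log2 fold change 0.45, SE 0.11, adjusted p 0.0508 by limma), though it passed in 6 of the 12 other settings. Without vehicle replicate 1 or 2 the calls of Tradd (0.0599 and 0.0622) and Cradd (0.0506 and 0.0576) ended, as did those of Sharpin and Traf4 without any 1 of the 4 arrays (0.0512 to 0.160). With array medians subtracted or cyclic loess normalization the list had 5 higher and 7 lower, and with quantile normalization 4 higher and 9 lower. Calls among all 12922 genes rose as well, from 3570 to 4240, 4359 and 4771 in that order.

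Effectors of death receptors and their inhibitors had 9 of 14 genes called, 64.3% against 27.6% of all genes. Of these 14, 7 were higher, 2 lower and 5 not passed, with a median log2 fold change of 0.24. The largest rises included genes that promote cell death and genes that block it. Ripk3, the kinase of necroptosis, read 2336 and 2130 with PDGF-BB and 589 and 617 with vehicle, a log2 fold change of 1.86 (SE 0.10, adjusted p 0.00146 by limma). Bid, which links caspase-8 to mitochondria, rose by 1.44 (SE 0.11, adjusted p 0.003 by limma). The survival genes Bcl2l1, which encodes BCL-XL, and Mcl1 had log2 fold changes of 1.71 and 1.65 (SE 0.10 each), with limma adjusted p-values of 0.00164 and 0.00223, Mcl1 reaching 7589 and 7600 with PDGF-BB, against 2263 and 2563 with vehicle. The calls of these 4 genes held in all 12 other settings. Casp8, the initiator caspase of Fas, read 595 and 488 with PDGF-BB and 286 and 314 with vehicle (log2 fold change 0.81, SE 0.13, adjusted p 0.0185 by limma), in 2 of 2 probe sets. Cflar, its inhibitor FLIP, rose by 0.76 (SE 0.15, adjusted p 0.029 by limma), also in 2 of 2 probe sets. Bid and Mcl1 were likewise called higher in 2 of 2 probe sets each, but Bcl2l1 in only 2 of 3. Without either vehicle array fewer genes of the list passed, and fewer of all genes passed as well. The calls of Casp8 and Cflar ended when 1 array was left out, Casp8 without PDGF-BB replicate 1 (0.0515), vehicle replicate 1 (0.121) or vehicle replicate 2 (0.0913), and Cflar without any 1 of the 4 arrays (0.0599 to 0.124) and with an offset of 1 (0.0637). Casp6, an executioner caspase, and Apaf1, the scaffold of the apoptosome, were the 2 that fell, by 0.74 (SE 0.08) and 0.46 (SE 0.11), and Bak1 rose by 0.51 (SE 0.10). These 3 were named after their values were seen.

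Genes of NF-kappaB feedback and TNF-responsive genes numbered 22, of which 11 rose, 1 fell and 10 did not pass. The share called was 54.5%, against 27.6% of all genes, with a median log2 fold change of 0.63. The list holds genes known to respond to TNF in many cells. The stress-induced survival gene Ier3 read 7996 and 7975 with PDGF-BB and 1434 and 1512 with vehicle, a log2 fold change of 2.43 (SE 0.09, adjusted p 0.00071 by limma). Cx3cl1, the chemokine fractalkine, read 1491 and 1361 with PDGF-BB and 255 and 271 with vehicle, a log2 fold change of 2.37 (SE 0.10, adjusted p 0.000889 by limma). The adhesion molecule gene Icam1 rose by 2.18 (SE 0.11, adjusted p 0.00133 by limma). Il6 read 96.7 and 87.9 with PDGF-BB and 23.3 and 22.9 with vehicle, at least 1.12-fold higher when set against the background level (adjusted p 0.00228 by limma). Tnip1, a partner of the deubiquitinase A20, was the one that fell, by 0.72 (SE 0.09, adjusted p 0.00993 by limma), and was named after its value was seen. Without vehicle replicate 1 or 2 fewer genes of the list passed, as did fewer genes of the whole table.

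**Figure D4:**
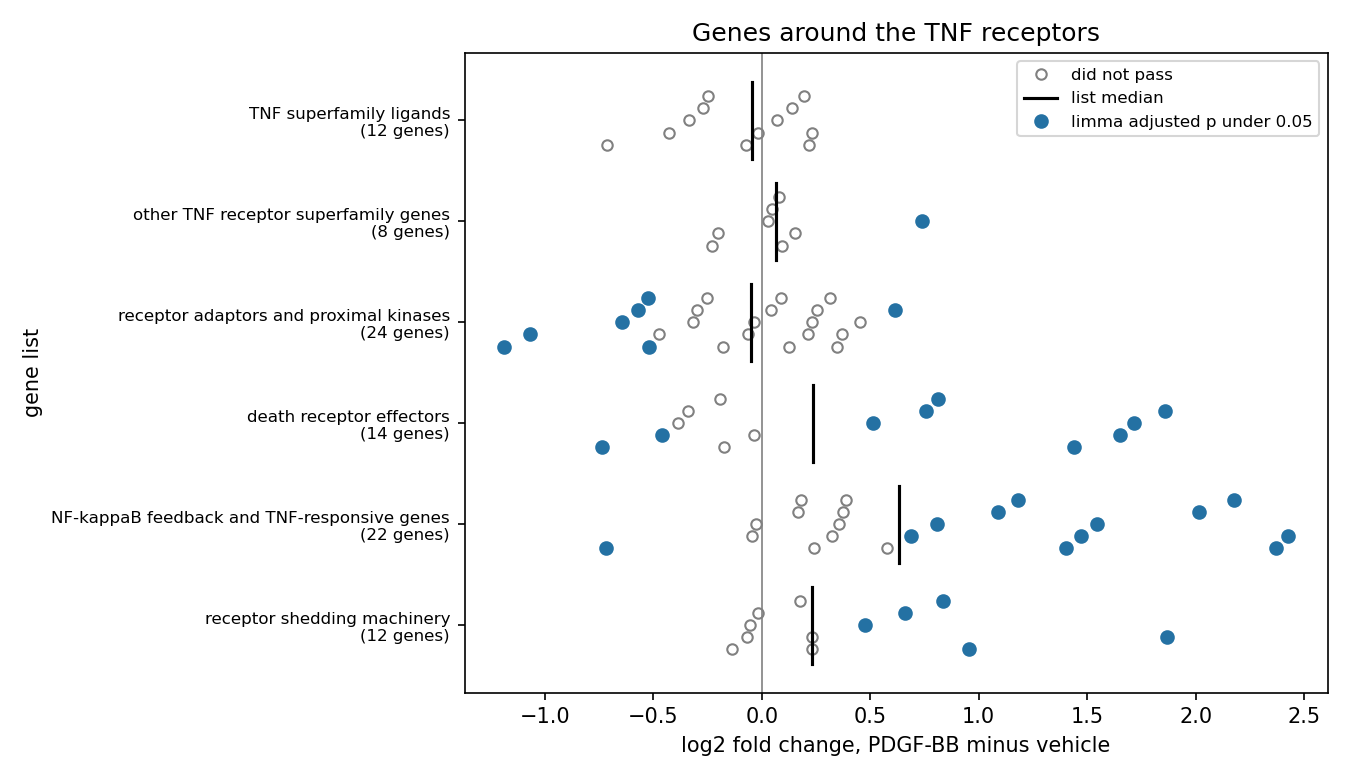
Log2 fold change, PDGF-BB minus vehicle, of each gene in the 6 lists around the receptors, with filled points at a limma adjusted p under 0.05 and a bar at the list median. The ligands, 11 of 12 at or below background, hold no filled point, the adaptors have 6 filled points below 0 and 1 above, and the NF-kappaB list has the highest median, 0.63.

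The machinery that sheds receptors and ligands from the membrane had 5 of 12 genes higher and 7 not passed. The share called was 41.7%, against 27.6% of all genes, with a median log2 fold change of 0.23. All 12 genes lay above background. In the fit limited to probe sets above background, 5 of 12 were called. That was a lower share than the 4630 of 8917 genes called there. Adam17, the protease that releases TNF and its receptors, read 1681 and 1480 with PDGF-BB and 794 and 819 with vehicle, a log2 fold change of 0.95 (SE 0.11, adjusted p 0.00724 by limma). Rhbdf2 and Frmd8, which encode partners of ADAM17, rose by 0.66 (SE 0.11, adjusted p 0.0178 by limma) and 0.48 (SE 0.11, adjusted p 0.0413 by limma). The metalloproteinase inhibitor Timp1 rose by 1.87 (SE 0.09, adjusted p 0.00108 by limma), to 10679 ± 261 with PDGF-BB, against 2909 ± 31.4 with vehicle (SD, n = 2 each). Timp3, the inhibitor of ADAM17 itself, read 5206 and 5358 with PDGF-BB and 5227 and 5451 with vehicle, overlapping groups (log2 fold change -0.02, SE 0.09, adjusted p 0.924 by limma), and was named after its values were seen. Calls ended for Adam17 without vehicle replicate 1 or 2 (0.0692 and 0.0622), for Rhbdf2 without PDGF-BB replicate 1 (0.0516) or either vehicle array (0.109 and 0.127), and for Frmd8 without any 1 of the 4 arrays (0.0548 to 0.221), with an offset of 1 (0.0740) and with the replicate block (0.0677).

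The genes that flank the members in the RefSeq gene order were looked at next. Of 14 flanking protein-coding genes, 11 were measured, and 1 of these rose and 10 did not pass, against 27.6% called among all genes. Among those 10, Scnn1a, Tnfrsf8, Uts2, Adgrf1, Ch25h and Cldn6 had means below background in both groups, where a difference could be missed. Cd2ap, beside Tnfrsf21, was the one that rose, by 0.58 (SE 0.09, adjusted p 0.0163 by limma). Hcfc1r1, beside Tnfrsf12a, had a log2 fold change of -0.33 (SE 0.09, adjusted p 0.0726 by limma), and Cldn6, on its other side, was below background in both groups. Fas lies beside Acta2, the smooth muscle alpha-actin gene, whose log2 fold change was -0.10 (SE 0.09, adjusted p 0.504 by limma).

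The genes with profiles nearest to those of the members were found by the Euclidean distance between the 4 log2 values after subtraction of each gene's mean, a measure set mainly by the size of the difference between the groups. For Tnfrsf12a, among 8916 genes above background, these were the transcription factor gene Runx1 (distance 0.0657, log2 fold change 3.24), the ferredoxin gene Fdx1 (0.0835, 3.14) and the LIM-domain gene Lmcd1 (0.0892, 3.28). For Tnfrsf1a they were Mical2 (0.041), LOC100910424 (0.0479) and Kitlg, the KIT ligand gene (0.0597). Tnfrsf21 was nearest to Ahr (0.161), Gpatch4 (0.192) and Gfra1 (0.223). Tnfrsf1b also met the rule, but its values were all below background and its nearest genes are not described.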

How the data were processed

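RNA from rat aortic smooth muscle cells was labelled with biotin as cRNA and hybridised to Affymetrix arrays, per the labels' protocols, 2 arrays with PDGF-BB and 2 with vehicle, grouped by sample title. The deposited table holds 1 intensity per probe set and array, linear to judge by the values. How the authors corrected background and scaled arrays, and with which software, is not given in the sources used here. Of 23764 probe sets, 57 Affymetrix controls were left out. The platform annotation of 2016 names 1 symbol for 17279 of them, more than 1 for 373 and none for 6055. Each gene stands for its brightest probe set by mean log2 value. The test used log2(intensity + 16) and no added scaling, in limma 3.58.1 (lmFit, then eBayes; R 4.3.3) with two-sided p-values, adjusted after Benjamini and Hochberg across 23707 probe sets, a threshold of 0.05 and 2 residual degrees of freedom. The offset understates the change of dim genes, and the number of arrays limits precision.

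The members, the 6 lists (121 symbols, 92 measured) and the tests were chosen with earlier results of these data known. Named were all members, from each list at most 4 called genes, ranked by p, whose groups did not overlap, 12 ligand, receptor, adaptor and effector genes fixed by name, and the 3 nearest profiles of each member that differed by at least 1 on the log2 scale. Of these 12, Tnfrsf11a and Fadd had no probe set with 1 symbol and were not analysed here. Alternatives changed the offset, the scaling, the filter, the variance prior, the block and the arrays.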

Additional observations from a re-analysis of the deposited data

How the results depend on the processing

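With all arrays, limma called 3570 genes, 5779 probe sets and 7 of 8 member probe sets. The fits that left out 1 array, in which the lone array of a group is assumed to vary like the other group, gave 786 to 2683 genes, 1272 to 4223 probe sets, 2 to 4 member probe sets (2 without vehicle replicate 1, 3 without vehicle replicate 2 or PDGF-BB replicate 2, 4 without PDGF-BB replicate 1), 0 to 2 ligands, 0 of the 8 further receptors, 0 to 4 adaptors (0 without either vehicle array), 4 to 6 death receptor effectors, 8 to 12 NF-kappaB genes and 1 to 3 shedding genes. Quantile normalization called 1899 genes higher and 2872 lower, and without vehicle replicate 2 there were 521 higher and 320 lower. Of the other settings, the adaptor list, 7 with the offset of 16, had 12 calls with an offset of 64, 12 with array medians subtracted, 13 with quantile normalization, 12 with cyclic loess, 13 among probe sets above background and 11 with an intensity trend in the variance prior. Calls among all genes rose in these settings as well. In the same order they numbered 4548, 4240, 4771 and 4359 of 12922, 4630 of 8917 above background, and 4718 of 12922. Among further receptors quantile normalization gave 2 calls, 1 higher and 1 lower, and among shedding genes 5 higher and 1 lower. An offset of 1 left 3 shedding genes, and 2578 of all 12922 genes. The replicate numbers are only numbers: the deviations of replicates 1 from their group means correlated at -0.0978 between the groups. The replicate block gave 2992 genes, 4954 probe sets, 6 member probe sets and 1 ligand. Causes were not tested. Signal near background limits Tnfrsf1b, Tnfrsf9, the second Fas probe set and 11 of 12 ligands.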

Other observations

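The windows before the starts of Tnfrsf12a and Fas share a run of 18 bases, GGGCGGGCCCAGGCAAAG, which begins 88 bases before the Tnfrsf12a start of the promoter table (a start 18 bases inside the gene span) and 47 bases before that of Fas and opens with a GC box. It came from a comparison of the 15 pairs of member windows made after the sequences had been seen. Among 33469 RefSeq windows of 250 bases it stood in 2, these 2. In every other pair the longest shared run was at most 9 bases. Pairs were compared only with each window read on the strand of its gene, so runs in opposite orientation were not searched. The 2 genes differed in opposite directions after PDGF-BB, with log2 fold changes of 3.22 (SE 0.08) for Tnfrsf12a and -0.86 (SE 0.11) for the brighter Fas probe set.

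Cd14, a marker of monocytes, was bright at 1209 with PDGF-BB and 1434 with vehicle (means of 2 arrays), with a log2 fold change of -0.25 (SE 0.11), while Aif1 averaged 92.3 with PDGF-BB and 82.8 with vehicle and the other 5 macrophage markers measured lay below background.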
